A study of Mus musculus with 6 samples.

Results

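The neighbouring genes Cdkn2a, Cdkn2b and Mtap of mouse chromosome 4 were followed across single-cell RNA sequencing of cultured muscle-derived stem/progenitor cells (MDSPCs). They were picked by name, after their summed levels in old and young populations were known, and are 3 of the 21485 genes counted in every sample. MDSPCs are slowly adhering cells obtained from dissociated skeletal muscle by repeated transfer of the cells that had not yet attached. Per the labels, 3 populations came from young mice (Y1-1, PtC5 and FT-QU, called young replicates 1, 2 and 3) and 3 from old mice (O1-1, NA-f2 and NA-f3, old replicates 1, 2 and 3). All 6 were grown in the same serum-rich proliferation medium, with no other agent named, and each was captured once with a 3′ droplet kit. The labels give no age, sex, strain or passage, and do not say how many mice a population came from. The study compared young with old populations.

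Cdkn2a encodes 2 unrelated growth-suppressing proteins from different first exons: p16, which blocks the cyclin D kinases CDK4 and CDK6 and so keeps the retinoblastoma protein active, and p19Arf, which holds back MDM2 and so protects p53. Cdkn2b encodes p15, another CDK4 and CDK6 inhibitor, known as a target of TGF-beta signalling. Mtap encodes methylthioadenosine phosphorylase, which recycles the by-product of polyamine synthesis into adenine and methionine, and is often lost together with its neighbours in tumours. Cdkn2a transcripts are widely used as a marker of senescent and aged cells, and Polycomb proteins are known to keep the locus silent in young cells.

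In GRCm38 with the GENCODE M21 annotation, Mtap lies on the plus strand of chromosome 4 at 89137122 to 89181081. Cdkn2a lies on the minus strand at 89274471 to 89294653, 93.389 kb beyond the end of Mtap. Cdkn2b follows on the minus strand at 89306299 to 89311039, 11.645 kb upstream of the first Cdkn2a start. The p19Arf transcript starts at 89294653 and the p16 transcript at 89282192, inside the first intron of the longer transcript. The UMI (unique molecular identifier) counts come from reads of 90 bases near the 3′ end. Of the 90-base stretches in the last 500 bases of the p16 transcript, 83.0% also occur in the p19Arf transcript, so a Cdkn2a value here is the sum of p16 and p19Arf. None of its 90-base stretches occurs in the Cdkn2b transcript, so reads of these related genes can be told apart.

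The sequences upstream of the starts are shown because the 3 promoters of the inhibitor genes differ in composition, while the counts cannot say which of the Cdkn2a promoters was used. Each is 216 bases long, 5′ to 3′ on the minus strand, from RefSeq on GRCm38.p6. Capitals mark matches, on either strand, to a GC box (GGGCGG) or a cyclic AMP response element (TGACGTCA).
Cdkn2a p19Arf promoter, chr4:89294654-89294869: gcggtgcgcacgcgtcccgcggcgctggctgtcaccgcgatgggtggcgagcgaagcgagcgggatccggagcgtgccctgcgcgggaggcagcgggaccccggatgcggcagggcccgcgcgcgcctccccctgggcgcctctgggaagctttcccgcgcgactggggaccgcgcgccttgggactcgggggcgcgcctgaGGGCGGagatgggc
Cdkn2a p16 promoter, chr4:89282227-89282442: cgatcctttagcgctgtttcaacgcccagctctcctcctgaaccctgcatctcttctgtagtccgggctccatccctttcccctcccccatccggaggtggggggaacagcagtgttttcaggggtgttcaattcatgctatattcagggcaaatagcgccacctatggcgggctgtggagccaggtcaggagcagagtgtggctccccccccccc
Cdkn2b promoter, chr4:89311067-89311282: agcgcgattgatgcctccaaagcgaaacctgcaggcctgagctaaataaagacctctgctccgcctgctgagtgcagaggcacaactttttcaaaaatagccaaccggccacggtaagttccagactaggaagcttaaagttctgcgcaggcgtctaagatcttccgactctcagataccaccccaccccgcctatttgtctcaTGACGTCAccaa
The p19Arf window held 78.7% G and C with 35 CpG dinucleotides, more than in 98.8% of the promoter windows of all genes. The p16 window held 59.7% G and C with 7 CpG, and the Cdkn2b window 51.9% with 11 CpG, against medians of 51.9% and 5 CpG over 32851 promoter windows of the same length. The GC box of the p19Arf window was present in 27.9% of all windows, and the response element of the Cdkn2b window in 1.11%. The core of an E2F site (TTCCCGC, either strand) occurred once, in the p19Arf window, and in 3.24% of all windows. No E-box (CANNTG, found in 61.6% of windows) was present in any of the 3. These are matches of letters and say nothing of binding in these cells.

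After filtering, 61673 of 62849 deposited barcodes were kept as cells, between 8674 and 12541 per sample, with median depths of 13001 to 19951 UMIs. Any pair of libraries shared 24 to 41 barcodes, at most 0.375% of the smaller library. CPM are a gene's UMIs over all UMIs of the kept cells on the 21485 shared genes, scaled alike in every sample. The 8 myogenic markers summed to 211 to 2252 CPM in young cultures and 277 to 3456 CPM in old populations. Chrna1 had the highest mean of the 8, and the sums do not show that each gene was present in every sample. The 8 fibro-adipogenic markers summed to 188 to 306 and 181 to 462 CPM, with Lum and Pi16 under 1 CPM everywhere. Smooth muscle and pericyte markers, mainly Acta2, summed to 187 to 709 and 36.2 to 1485 CPM. The endothelial, immune and Schwann lists each summed to under 10 CPM in every sample. Young replicate 1 and old replicate 1 had been counted on a shorter gene list than the other 4 samples, so level differences are also given within each list. Across all 14512 genes tested between old and young samples, edgeR's quasi-likelihood test called 1 (0.00689%), Cyba, an NADPH oxidase subunit named after its values were seen, at 0 to 0.00529 CPM in young and 2.50 to 109.5 CPM in old samples. A total of 512 genes had an unadjusted p under 0.05, and DESeq2 called 219 (1.51%).

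Cdkn2a was the member with the widest range between populations. Its level was 12.3, 12.7 and 7.30 CPM in young replicates 1, 2 and 3, and 107, 32.5 and 499.6 CPM in old replicates 1, 2 and 3. The lowest old sample lay above the highest young sample, and the old samples spanned a 15.4-fold range against 1.74-fold in young cultures. In order, the levels ran from young replicate 3 through young replicates 1 and 2, whose 95% counting intervals overlapped (11.7 to 12.9 and 12.2 to 13.2 CPM), to old replicates 2, 1 and 3. Group means came to 10.7 ± 2.99 CPM in young and 213 ± 251 CPM in old samples (SD over 3 samples each), and the log2 fold change was 4.17 with a standard error (SE) of 1.19. Because the gene was chosen on this contrast, no test is given. Old replicate 3 held most of the Cdkn2a UMIs, and without it the log2 fold change was 2.14. The log2 ratio of means was 4.31 over all samples and 4.74 within the longer gene list, and between the 2 samples on the shorter list it was 3.12.

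Cdkn2b ran the other way. Its level was 96.1, 46.3 and 71.7 CPM in young cultures and 30.8, 12.8 and 16.1 CPM in old populations. Every old sample lay below every young sample, and the spread within a group was 2.07-fold in young cultures and 2.41-fold in old cultures. Group means came to 71.4 ± 24.9 and 19.9 ± 9.60 CPM (SD over 3 samples each), with a log2 fold change of -1.97 (SE 0.25). The log2 ratio of means was -1.84 over all samples, -2.03 within the longer list and -1.64 within the shorter.

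Mtap was the most abundant of the 3 in young populations, at 236, 112 and 187 CPM, and reached 217, 59.2 and 42.6 CPM in old cultures. Old replicate 1 lay among the young samples, while old replicates 2 and 3 lay below all of them. Group means came to 178 ± 62.6 and 106 ± 96.0 CPM (SD over 3 samples each), and the log2 fold change was -1.16 (SE 0.33). As a ratio of means the log2 difference was -0.75 over all samples, -1.55 within the longer list and -0.12 within the shorter list, so the size of the Mtap difference rested on which samples were set side by side. Myogenic markers, which summed to 332, 2252 and 211 CPM in young replicates 1, 2 and 3 and to 277, 1709 and 3456 CPM in old replicates 1, 2 and 3, were high where Mtap was low. Their part in the difference was not tested. Cells without a Myog UMI, which may still hold the other myogenic markers, had 240, 123 and 188 CPM of Mtap in young replicates. In old replicates such cells had 217, 63.5 and 54.2 CPM. Over all genes tested, 5.02% had every old sample above every young sample and 0.903% had every old sample below, shares given here as background only, since the members were picked on these values. Adjacent genes thus stood on opposite sides of the young level in the same libraries.

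**Figure D1:**
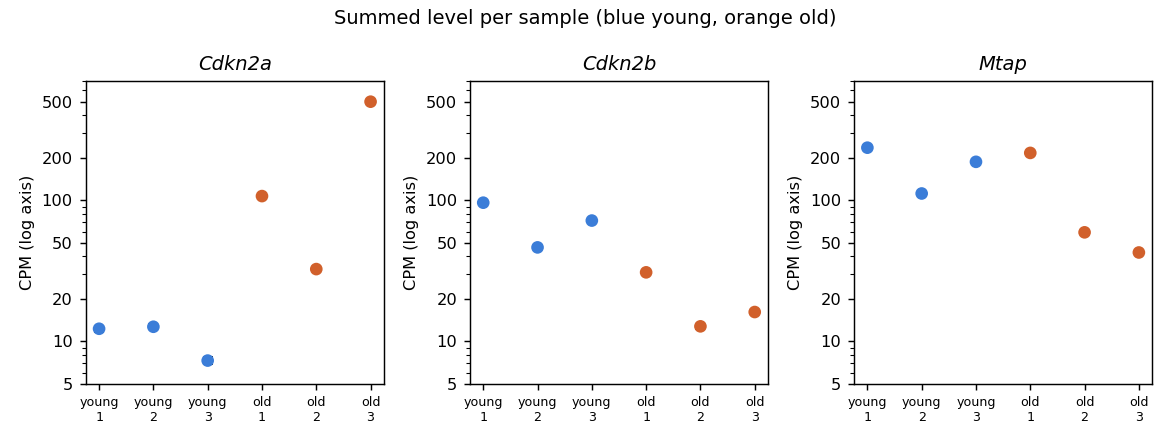
Summed level of each gene in each sample, in CPM on a logarithmic axis. Points are samples, blue for young and orange for old, and bars are 95% Poisson intervals that cover counting error only and are mostly smaller than the points. Cdkn2a spans 7.30 to 499.6 CPM with the old samples highest, Cdkn2b is lowest in old populations, and Mtap of old replicate 1 (217 CPM) lies among the young.

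The same counts can be set out as the balance between the inhibitor genes of a library, without reference to the rest of the transcriptome. For each Cdkn2b UMI there were 0.128, 0.274 and 0.102 Cdkn2a UMIs in young populations and 3.47, 2.55 and 31.0 in old cultures. Mtap UMIs per Cdkn2b UMI were nearly constant in young populations, at 2.45, 2.41 and 2.61. In the old samples they were 7.03, 4.64 and 2.64, so that old replicate 3 lay next to the young samples and old replicate 1 farthest from them. These are ratios of UMIs compared across samples, not of molecules per gene length.

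The share of cells with a UMI was measured after every cell had been thinned at random to 5000 UMIs, which left out 149 to 373 shallower cells per sample. Cdkn2a was detected in 6.03%, 5.94% and 3.49% of young cells, and in 30.8%, 12.4% and 88.6% of old cells. The unthinned shares were 15.4%, 18.8% and 11.5% in young cultures and 58.3%, 30.2% and 96.9% in old populations. In old replicate 3 most cells thus held a Cdkn2a UMI. The old minus young difference was 38.8 percentage points, and 16.5 points without old replicate 3. Intervals for such shares cover counting error only, and the share that free RNA would give was not measured, since no cell class in these cultures is known to lack these genes.

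Fewer cells held a gene than an even spread of its UMIs would give, for each of the 3 genes in every sample. For Cdkn2a of young replicate 3 the gap was slight, with 3.51% expected and 3.49% observed. How many other genes show such a gap was not measured, so it is not shown to be particular to these 3. If the Cdkn2a UMIs had been spread evenly over cells, 40.8% of cells of old replicate 1 would have held one, against the 30.8% observed. The expected and observed shares were 14.6% and 12.4% in old replicate 2, and 92.7% and 88.6% in old replicate 3. In the young samples, at 0.0357 to 0.0651 Cdkn2a UMIs per cell, this share has little room to depart from the even-spread value. Cells with 2 or more UMIs made up 0.450%, 0.366% and 0.0847% there, against 0.203%, 0.191% and 0.0624% for an even spread. The variance-to-mean ratio of Cdkn2a UMIs per cell was 2.90 in old replicate 1, 1.35 in old replicate 2 and 1.43 in old replicate 3, but this ratio rises with the mean and is not compared between samples of different level. Without thinning, the even-spread and observed shares were 75.4% and 58.3% in old replicate 1 and 47.0% and 30.2% in old replicate 2, so the gap was about as large in both.

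Cdkn2b was detected in 35.3%, 20.8% and 28.6% of young cells and in 13.1%, 5.49% and 7.25% of old cells at 5000 UMIs. The even-spread shares were within 2.05 points of these values in each sample. Without thinning the shares were 64.9%, 49.8% and 62.1%, and 29.4%, 17.4% and 18.5%. Mtap was detected in 65.1%, 40.2% and 58.5% of young cells and in 62.8%, 24.4% and 18.2% of old cells, and without thinning in 88.8%, 75.2% and 89.7%, and 87.7%, 61.0% and 40.8%. The Mtap shares minus the even-spread shares were -4.20, -2.01 and -2.23 points in young replicates 1, 2 and 3 and -3.88, -0.744 and -0.820 points in old replicates 1, 2 and 3. The old minus young differences were -19.6 points for Cdkn2b and -19.4 points for Mtap. The latter was -33.3 points without old replicate 1 and -11.0 points without old replicate 3.

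**Figure D2:**
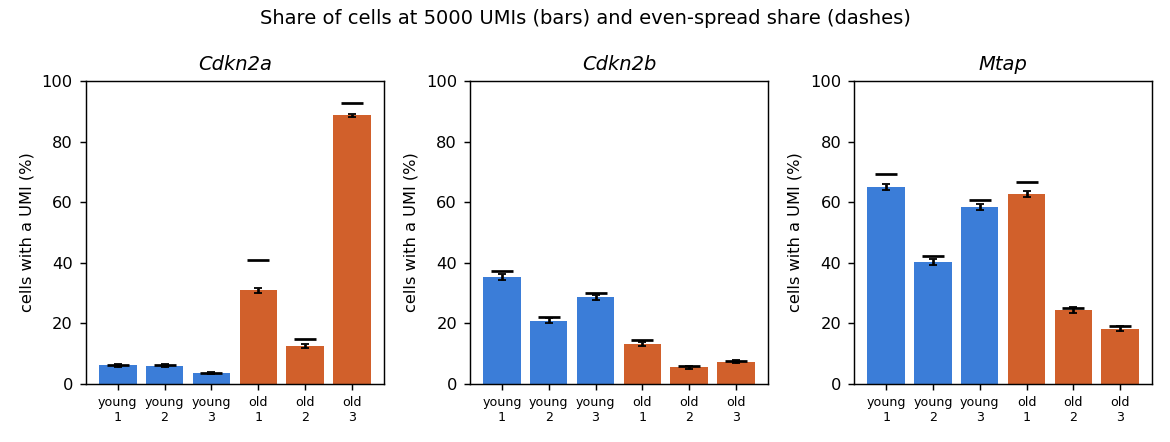
Percentage of cells with at least 1 UMI of each gene after thinning to 5000 UMIs. Bars are samples with exact 95% binomial intervals, blue for young and orange for old, and dashes are the share that an even spread of the same UMIs over cells would give. The dash stands well above the bar for Cdkn2a in old replicate 1 (40.8% against 30.8%).

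Cells that held none of the 3 genes at 5000 UMIs made up 22.5%, 44.8% and 28.8% of the young and 22.8%, 64.2% and 9.05% of the old samples. Mtap alone was the most frequent pattern among cells with any of the genes in young populations (38.5%, 29.955% and 40.3%) and in old replicates 1 and 2 (38.3% and 19.8%). In old replicate 3 it was Cdkn2a alone, at 66.8%. Cells with Cdkn2b but not Cdkn2a made up 33.0%, 19.3% and 27.4% of the young populations, 8.06% and 3.64% of old replicates 1 and 2, and 0.625% of old replicate 3. Cells with all 3 genes were scarce everywhere, at 0.564% to 3.15%.

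The relation to proliferation was tested within each sample, which does not use the contrast that chose the genes. Mki67 and Top2a, which encode a chromosome surface protein and a topoisomerase of dividing cells, marked 35.2%, 37.6% and 61.0% of young cells and 64.3%, 25.9% and 41.1% of old cells as proliferating at 5000 UMIs. The marked cells were deeper, with medians of 14743 to 22394 UMIs against 11839 to 19232, and levels were taken as CPM over all UMIs of each class. Each gene's log2 ratio of positive over negative cells was tested over the 6 samples with a two-sided exact sign-flip permutation test, whose smallest p is 0.03125. Adjustment was made over the 9 tests of this kind. The adjusted p of a test at the smallest p therefore depends on how many of the 9 reach it.

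Cdkn2b was lower in proliferating cells of all 6 samples. In the young samples it fell from 106 to 80.0, from 52.1 to 38.8 and from 75.3 to 69.9 CPM, and in old cultures from 39.0 to 27.2, from 13.7 to 10.4 and from 19.3 to 12.3 CPM (negative against positive cells). The mean log2 ratio was -0.42 (SD 0.18, n = 6, 95% interval from the t distribution over samples -0.61 to -0.23, exact permutation p = 0.03125, adjusted 0.0469). Young replicate 3, with a ratio of -0.11, was closest to 0. The call was lost with Mki67 alone (mean log2 ratio -0.28, adjusted exact permutation p = 0.0938). It was also lost with classes from all UMIs (-0.42, exact permutation p = 0.03125, adjusted 0.0563), although the unadjusted p stayed at its smallest value. In a fit over all genes with the sample as a block, added after the data were seen, edgeR gave -0.48 (SE 0.07, adjusted p = 0.000736), and there 27.8% of 13560 genes were called lower, while 17.2% were lower in all 6 samples. Sorted by scored phase, Cdkn2b was highest in G1 and lowest in S cells in 6 of 6 samples. It stood at 117 and 77.1 CPM in G1 and S cells of young replicate 1, and at 21.8 and 8.85 CPM in those of old replicate 3.

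Cdkn2a gave no relation to proliferation that passed the test. Its levels in negative and positive cells were 12.2 and 12.2, 11.5 and 14.2, and 7.90 and 6.98 CPM in young populations. In the old samples they were 112 and 105, 31.9 and 33.8, and 514 and 484 CPM. The ratio lay below 0 in 4 samples and above 0 in 2, with a mean log2 ratio of 0.007 (SD 0.17, 95% interval -0.18 to 0.19, exact permutation p = 0.969, adjusted 0.969). Proliferating cells of old replicate 3 thus carried 484 CPM of Cdkn2a, far above any class of young cells.

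Mtap was higher in proliferating cells of 5 samples. The levels in negative and positive cells were 239 and 231, 100.6 and 126, and 177 and 192 CPM in young cultures, and 215 and 218, 52.8 and 74.6, and 37.1 and 49.1 CPM in old populations. The mean log2 ratio of 0.22 (SD 0.22, 95% interval -0.02 to 0.45) did not pass the test (exact permutation p = 0.0938, adjusted 0.121), nor did the fit over all genes (edgeR adjusted p = 0.113), where 20.6% of 13560 genes were called higher and 26.6% were higher in all 6 samples. Across scored phases, Mtap was highest in S cells in 5 of 6 samples, for example at 60.5 CPM in S against 32.1 CPM in G1 cells of old replicate 3. For none of the 3 relations was a difference between old and young samples detected, with exact permutation p-values of 0.3 to 0.8, where 0.1 is the smallest that 3 against 3 can give.

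Myog, the transcription factor myogenin that marks cells entering muscle differentiation, was detected in 3.29%, 20.5% and 5.17% of young cells and in 0.606%, 14.7% and 46.0% of old cells. In old replicate 1 that was 60 cells, with 30 Cdkn2a and 17 Cdkn2b UMIs. All 3 members were lower in Myog-positive cells of all 6 samples. Cdkn2a stood at 12.4 and 4.59, 13.7 and 8.64, and 7.36 and 5.99 CPM in negative and positive cells of the young populations, and at 108 and 37.5, 34.9 and 18.2, and 560.2 and 432 CPM in old cultures. The mean log2 ratio was -0.86 (SD 0.51, 95% interval -1.39 to -0.32, exact permutation p = 0.03125, adjusted 0.0469). Thus the Myog-positive cells of old replicate 3, at 432 CPM, still held more Cdkn2a than the negative cells of any other sample.

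For Cdkn2b the negative and positive levels were 97.7 and 51.3, 47.8 and 40.2, and 72.5 and 56.9 CPM in young cultures, and 30.9 and 21.3, 13.9 and 5.65, and 19.5 and 12.2 CPM in old populations. The mean log2 ratio was -0.67 (SD 0.39, 95% interval -1.08 to -0.26, exact permutation p = 0.03125, adjusted 0.0469). Mtap fell from 240 to 102, from 123 to 63.7 and from 188 to 163 CPM in young cultures, and from 217 to 119, from 63.5 to 33.7 and from 54.2 to 29.3 CPM in old cultures. Its mean log2 ratio was -0.84 (SD 0.34, 95% interval -1.20 to -0.49, exact permutation p = 0.03125, adjusted 0.0469). Levels were lowest in cells with 2 or more Myog UMIs in 6 of 6 samples for Cdkn2a and Mtap and in 5 of 6 for Cdkn2b. Cells with 1 Myog UMI lay near those with none in some samples, as for Cdkn2a in young replicate 2 (13.6 against 13.7 CPM). In old replicate 3, Mtap went from 54.2 through 46.3 to 24.7 CPM over these steps.

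The edgeR fit over all genes gave log2 ratios of -0.75 (SE 0.18) for Cdkn2a, -0.64 (SE 0.14) for Cdkn2b and -0.81 (SE 0.12) for Mtap, with adjusted p-values of 0.0154, 0.00975 and 0.00213. In that fit 20.2% of 13486 genes were called lower, and 21.9% were lower in all 6 samples, so a lower level in Myog-positive cells was common. Myog-positive cells were also less often proliferating, with Mki67 or Top2a in 7.92% to 56.7% of them against 29.0% to 64.5% of the negative cells of the same samples. This was so in each sample. With the cells marked by Mki67 or Top2a left out, the log2 ratios were -0.95, -0.79 and -0.98, each with an adjusted exact permutation p of 0.0469. Unmarked cycling cells remain in that comparison. No difference of these ratios between old and young samples was detected (exact permutation p = 0.7, 0.4 and 1.0, the smallest possible being 0.1). With classes drawn from all UMIs in place of thinned counts, no ratio by Myog passed after adjustment. Exact permutation p-values were 0.03125 (adjusted 0.0563) for Cdkn2a and Mtap and 0.0625 (adjusted 0.0938) for Cdkn2b.

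**Figure D3:**
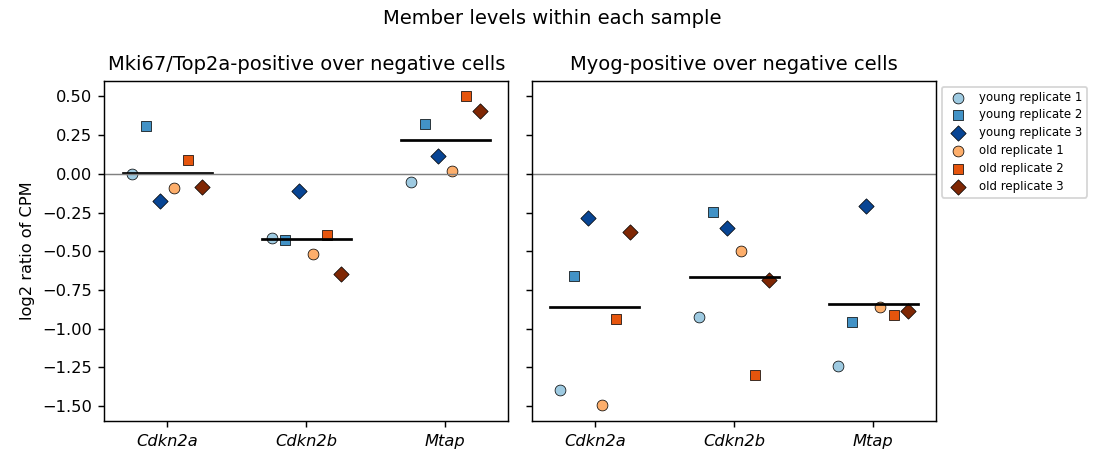
Log2 ratio of CPM between positive and negative cells of the same sample, for Mki67 or Top2a (left) and Myog (right). Points are the 6 samples and horizontal lines their means. Cdkn2b lies below 0 in all samples in both panels, Cdkn2a scatters around 0 on the left, and all 3 genes lie below 0 on the right.

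Co-detection in single cells was compared with independence, the product of the shares of the paired genes at 5000 UMIs. Cdkn2a and Cdkn2b met in the same cell more often than independence gives in all 6 samples. The observed and expected numbers of cells were 193 and 180, 161 and 131, and 129 and 106 in young cultures, and 499 and 400, 157 and 58.1, and 806 and 782 in old populations. The ratios were 1.07, 1.22 and 1.21, and 1.25, 2.69 and 1.03. The mean log2 ratio was 0.41 (SD 0.51, n = 6, 95% interval -0.12 to 0.95, exact permutation p = 0.03125, adjusted 0.0469), and 0.21 without old replicate 2. In young replicate 1 and old replicate 3 the 95% counting interval of the observed share held the share under independence. That interval does not take the shares of the single genes as given, so it is too wide to judge independence within a sample. In young replicate 1, 37.9% of cells with Cdkn2a and 35.1% of the rest held Cdkn2b, and in old replicate 3, 7.47% and 5.50%. In old replicate 3 the high share of Cdkn2a limits the ratio to 1.13 at most. Among cells of old replicate 2 with Cdkn2a, 14.8% held Cdkn2b, compared with 4.16% of the remaining cells. How often other gene pairs exceed independence in all 6 samples was not measured. The excess is thus not shown to be particular to these genes.

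Cdkn2a and Mtap were paired more often than independence in all 6 samples as well, but the excess was small. The observed and expected cells were 364 and 331, 269 and 254, and 218 and 217 in young cultures, and 1920 and 1918, 312 and 258, and 2000 and 1965 in old cultures. Only in old replicate 2 did the 95% counting interval of the observed share leave out the share under independence. As above, that interval is too wide to judge independence within a sample. In young replicate 1, 71.5% of cells with Cdkn2a and 64.7% of the rest held Mtap, and in old replicate 3, 18.5% and 15.7%. The permutation test needs the same sign in all 6 samples to reach its smallest p. The ratios were 1.10, 1.06 and 1.00 in young cultures and 1.00, 1.21 and 1.02 in old populations. The mean log2 ratio was 0.09 (SD 0.10, 95% interval -0.02 to 0.20, exact permutation p = 0.03125, adjusted 0.0469), and 0.05 without old replicate 2. For Cdkn2b and Mtap the ratios were 1.04, 1.00 and 1.01, and 1.00, 1.17 and 1.00, with a mean log2 ratio of 0.05 (exact permutation p = 0.156, adjusted 0.176). For no pair was a difference between old and young samples detected (exact permutation p = 0.7 to 0.9, smallest possible 0.1). Cells were thinned to one depth, but doublets were not removed. Their part in co-detection was not tested beyond leaving out the deepest cells, which kept the calls of both Cdkn2a pairs. In that setting Cdkn2b with Mtap passed as well (mean log2 ratio 0.062, adjusted exact permutation p = 0.0402). It also passed within proliferation classes (0.064) and without thinning (0.11), at the same adjusted p. The calls of both Cdkn2a pairs were lost when cells were thinned to 2500 or to 10000 UMIs. Exact permutation p-values were 0.03125 or 0.0625 there, and the adjusted values 0.0563 to 0.0938. The mean log2 ratios at these depths were 0.44 and 0.32 with Cdkn2b, and 0.10 and 0.081 with Mtap.

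Within single samples, the cells richest in Cdkn2a were not poorest in Cdkn2b, although the old samples had more Cdkn2a and less Cdkn2b than the young. In old replicate 1 Cdkn2b went from 26.4 CPM in cells with no Cdkn2a UMI through 30.2 at 1 UMI and 50.3 at 2 to 4 UMIs to 126 CPM at 5 or more UMIs, above the summed level of each young sample. In old replicate 2 it went from 9.87 through 29.6 to 39.1 CPM over the first 3 of these classes. In old replicate 3 it was 15.4, 14.1, 15.6 and 21.7 CPM. In the young samples the values were 95.6, 109 and 118 CPM, 45.5, 58.7 and 64.8 CPM, and 71.5 and 78.7 CPM, with no cells or fewer than 20 in the higher classes. These are values per class with no test.

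Over the same classes Mtap went from 214 through 220 and 228 to 221 CPM in old replicate 1, from 56.8 through 73.8 to 76.3 CPM in old replicate 2, and from 35.5 through 38.5 and 44.3 to 49.1 CPM in old replicate 3. In young replicates 1, 2 and 3 it stood at 234, 275 and 291 CPM, 111, 120 and 103 CPM, and 186 and 214 CPM. In old replicate 3 the share of Myog-positive cells was 58.5%, 55.5%, 44.7% and 28.8% over the 4 classes, and in old replicate 2 it was 15.6%, 8.78% and 5.49% over the first 3. It was also lower in cells with 1 Cdkn2a UMI than in cells with none in each of the other 4 samples. The part of Myog in these values was not tested.

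**Figure D4:**
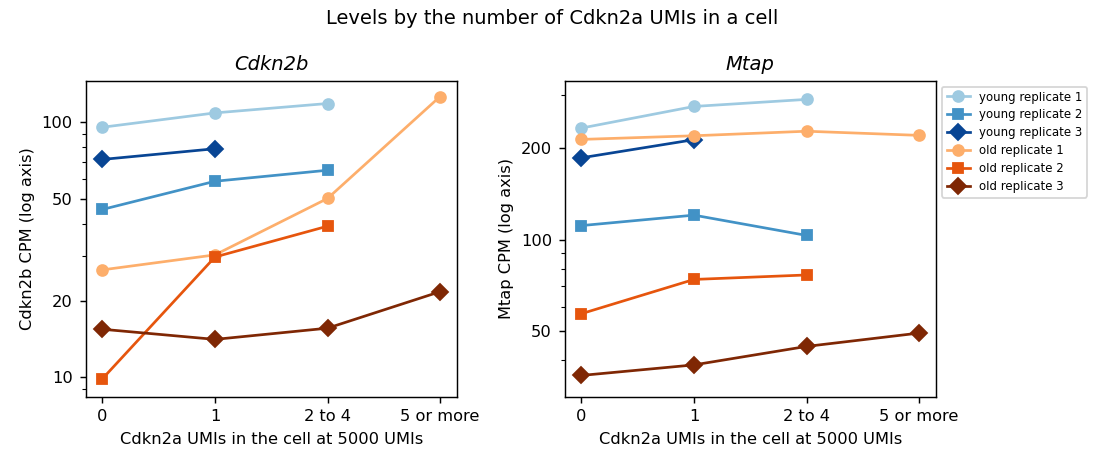
Level of Cdkn2b (left) and Mtap (right), in CPM on a logarithmic axis, in cells grouped by their number of Cdkn2a UMIs after thinning to 5000. Each line is 1 sample, and classes of fewer than 20 cells are left out. Cdkn2b of old replicate 1 goes from 26.4 to 126 CPM, while Mtap of that sample stays between 214 and 228 CPM.

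Across samples, Cdkn2a and Cdkn2b levels had a Pearson r of -0.71, Cdkn2a and Mtap of -0.58 and Cdkn2b and Mtap of 0.84 on the log2(CPM + 1) scale. These are descriptions over 6 samples that share the grouping by age. Of 7977 genes with a mean of 10 CPM or more, those most like Cdkn2a were Btg2 (r = 0.97), an antiproliferative p53 target, Klhl21 (0.96), an adaptor of a ubiquitin ligase used in mitosis, and Zfp106 (0.95), a zinc finger protein. Btg2 stood at 15.1 to 23.7 CPM in young and 38.7 to 92.7 CPM in old samples. Most like Cdkn2b were Gng2 (0.96), a G protein subunit, Cth (0.95), the enzyme that makes cysteine from cystathionine, and Pusl1 (0.95). Most like Mtap were Mthfsd (0.99), Cav2 (0.99), which encodes caveolin 2, and Eps8 (0.98), an actin regulator. Eps8 was lowest in old replicate 3 (19.0 CPM), as Mtap was, and highest in young replicate 3 (230 CPM), where Mtap was below young replicate 1 and old replicate 1.

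The 5 tested genes on each side of the locus were examined in the same comparison. None of the 10 was called by edgeR and none had separate old and young ranges, which 5.93% of all genes had in either direction. Their median log2 fold change was -0.10, with 2 above and 8 below 0, against -0.01 over all genes. On the Mtap side Hacd4 and Klhl9 were at -0.09 (SE 0.81) and -0.11 (SE 0.30). Gm13272, Ifnz and Gm13285, interferon-family genes whose similar copies make their counts uncertain, had a mean under 0.1 CPM over samples, as did Dmrta1 on the Cdkn2b side. Tusc1 was at -0.44 (SE 0.31) and Elavl2, which encodes a neuronal RNA-binding protein, at -2.08 (SE 1.19). Caap1 and Plaa had the lowest values, -2.98 (SE 1.66) and -2.69 (SE 1.46), and these rested on young replicate 2, where they reached 742 and 2107 CPM against 17.6 to 21.9 and 56.6 to 95.3 CPM in the other 5 samples. In that sample the 31 genes of 10 CPM or more within 10 Mb of the locus stood 0.82 higher (median log2 against the mean of samples) than genes of other chromosomes, compared with -0.32 to -0.16 in the other 5. That mean includes young replicate 2, which lowers the values of the other 5. The members themselves did not stand out in young replicate 2, which had the least Cdkn2b and Mtap of the young samples. Its Cdkn2a level, 12.7 CPM, was the highest of the young samples but close to the 12.3 CPM of young replicate 1.

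**Figure D5:**
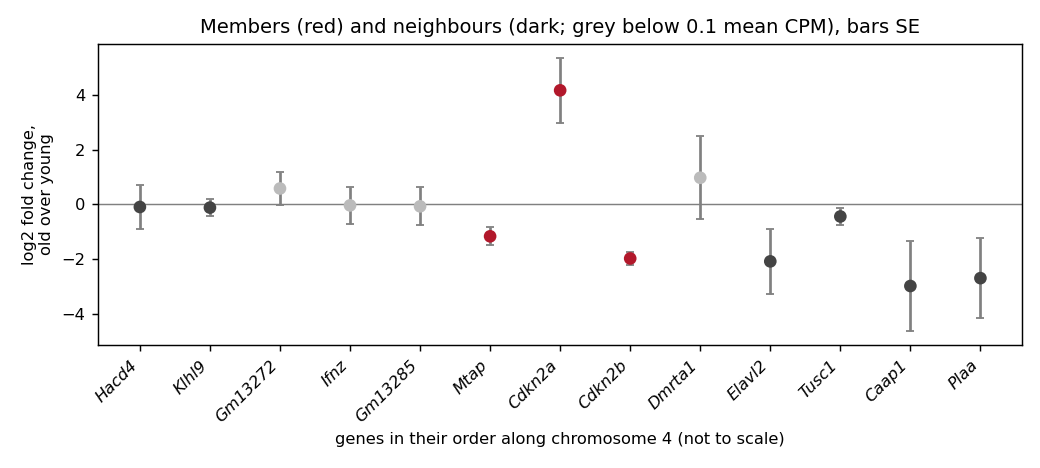
Log2 fold change of old over young samples (points, edgeR) with its standard error (bars) for the members in red and the 5 tested genes on each side, in chromosome order. Grey points are genes under 0.1 mean CPM. Cdkn2a stands at 4.17 beside Cdkn2b at -1.97, and the low values of Caap1 and Plaa rest on 1 young sample.

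The pathways that the members act on were described with gene lists. On the p16 and p15 side, none of the 27 genes of cyclin D kinases, retinoblastoma proteins, E2F factors and other inhibitors was called by edgeR, and none had an unadjusted p under 0.05 or a DESeq2 call. Their median log2 fold change was 0.02, with 14 above and 13 below 0. The most abundant were Cdk4 at -0.39 (SE 0.26), Cdkn1a (p21) at 0.87 (SE 1.09), Ccnd1 at 0.32 (SE 0.40) and Ccnd2 at 0.23 (SE 0.31). Cdk4, the kinase p16 and p15 bind, was at 427 to 838 CPM in young and 428 to 614 CPM in old samples. Cdkn1a reached 1718 CPM in old replicate 2, the old sample with the least Cdkn2a, and was lowest, at 113 CPM, in old replicate 3, the one with the most. The young samples held 125 to 556 CPM of Cdkn1a, so its ranges overlapped.

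On the p19Arf side, 0 of 20 genes of the MDM2 and p53 list were called by edgeR, 4 had an unadjusted p under 0.05 (Mdm2, Btg2, Eda2r and Pmaip1), and DESeq2 called Mdm2, Pmaip1 and Gdf15. Over all 14512 genes, 512 had an unadjusted p under 0.05 and DESeq2 called 1.51%. The list's median log2 fold change was 0.53, with 17 of 20 above 0. In 7 genes every old sample lay above every young sample (Pmaip1, Trp53inp1, Zmat3, Phlda3, Eda2r, Btg2 and Plk2), where the background over all genes is 5.02%. The gap was narrow for Trp53inp1 (highest young 24.15, lowest old 24.20 CPM) and Plk2 (63.8 and 64.7 CPM). Pmaip1, a death-promoting p53 target, was at 3.02, 3.57 and 8.51 CPM in young cultures and 22.1, 24.96 and 49.6 CPM in old populations. Mdm2, the ubiquitin ligase that p19Arf binds, was at 168, 55.3 and 72.2 CPM in young cultures and 339, 153 and 150 CPM in old cultures, so the ranges overlapped through young replicate 1. The most abundant genes of the list were Npm1 at -0.29 (SE 0.25), Bax at 0.18 (SE 0.30), Phlda3 at 0.72 (SE 0.32) and Ccng1 at 0.54 (SE 0.42). Trp53 itself was at -0.08 on the log2 scale. Cdkn1a, given above with the other inhibitors, is not counted in this list. The list was chosen with earlier results of these data known, so its shares beside the background are a description and no test.

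Among 36 genes known to regulate the locus, such as Polycomb subunits, Id and Ets factors, none was called by either tool or had an unadjusted p under 0.05. The median was -0.14, with 13 above and 23 below 0. Id3 stood at 0.62 (SE 0.36), Id1 at 0.68 (SE 0.28), Hmga2 at -0.89 (SE 0.52) and Jun at -2.49 (SE 1.60). Jun, which lies on the same chromosome, reached 2963 CPM in young replicate 2 and 78.8 to 155 CPM in the other samples. The Polycomb genes Bmi1 and Ezh2 had overlapping ranges, with Bmi1 at up to 37.0 CPM in young and 26.8 to 41.0 CPM in old samples, and Ezh2 at 47.7 to 176 and 50.1 to 96.5 CPM. Of the 36, 1 had separate ranges, against 5.93% of all genes. It was Cbx7, at 1.05 to 1.31 CPM in young and 2.02 to 2.83 CPM in old samples.

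Around Mtap, none of 18 genes of methionine salvage, methylation by Prmt5 and polyamine synthesis was called or had an unadjusted p under 0.05. Their median was -0.12, with 3 above and 15 below 0. Oaz1 and Odc1, an inhibitor and the first enzyme of polyamine synthesis, were at -0.04 (SE 0.26) and -0.07 (SE 0.35). Mat2a, which makes the methyl donor, was at -0.35 (SE 0.21), and Sat1, which acetylates polyamines, at 0.83 (SE 0.49). Prmt5, the methyltransferase that the Mtap substrate inhibits, was at 22.4 to 40.8 CPM in young and 22.1 to 52.2 CPM in old samples.

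Of the proliferation genes, edgeR called none. Of 42 S-phase genes none had an unadjusted p under 0.05, with a median of -0.12 and 14 above 0. The most abundant were Rrm2 at 0.48 (SE 0.23), Tipin at -0.09 (SE 0.41), Pcna at 0.02 (SE 0.27) and Nasp at -0.54 (SE 0.45). Rrm2, a ribonucleotide reductase subunit, was 1 of the 42 with separate ranges, at 103 to 157 CPM in young and 172 to 226 CPM in old samples. The 52 G2/M genes had a median of -0.13 with 13 above 0. The most abundant were Ube2c at 0.07 (SE 0.45), Cks1b at -0.31 (SE 0.40), Birc5 at -0.10 (SE 0.25) and Hmgb2 at -0.65 (SE 0.54). Psrc1, a spindle protein, was the only one with an unadjusted p under 0.05, was called by DESeq2 and stood at 10.8 to 14.5 CPM in young and 24.4 to 33.7 CPM in old samples, 1 of 52 with separate ranges. Over all genes 5.93% had separate ranges.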

How the data were processed

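Single-cell 3′ RNA libraries of 6 MDSPC populations were analysed. The authors deposited raw UMI counts per gene and barcode, made with Cell Ranger 7.0.0 (young and old replicate 1, list of 21849 features) or 7.2.0 (the other 4, 32285 features), per the file headers. The submitters' processing notes name Cell Ranger 7.2.0 and mm10. The handling of intronic reads is not given in the sources used here. The members and gene lists were chosen with earlier results of these data known.

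Cells with at least 1000 UMIs, 500 genes and under 15% mitochondrial UMIs were kept on the 21485 shared gene identifiers. No doublet caller was used. Sums per sample went into edgeR 4.0.16 under R 4.3.3 (TMM, filterByExpr, robust quasi-likelihood, terms gene list and group, Benjamini-Hochberg), with DESeq2 1.42.0 as an alternative. On simulated counts edgeR recovered 20% of genes changed 2-fold and 100% of those changed 8-fold, with 4 false calls among 14926 genes. Those counts had the same dispersion for every gene and no effect of gene list. Genes that vary more are recovered less often. Gdf15, at a log2 fold change of 3.97 (SE 1.92), was not called by edgeR, so a gene not called may still differ. CPM are unscaled. Phases were scored with scanpy 1.11.5 over the S and G2/M lists. Within-sample classes came from counts thinned to 5000 UMIs, and log2 ratios had 0.5 added to UMI sums. Whether replicates are separate mice is not stated, so p-values measure the spread between these populations. Alternatives covered scaling, filters, gene list, depth, class definition, doublets, replicate number and single samples. Named genes were the members, the 3 genes most correlated with each, the 5 tested neighbours on each side, and from each list the called genes or else the 4 of highest mean CPM. Other genes were named after their values were seen.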

Additional observations from a re-analysis of the deposited data

Results flagged for a closer look

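Only 4 samples (young replicates 2 and 3, old replicates 2 and 3) were counted on a gene list with noncoding features of the locus, which no comparison above uses. Within 200 kb of the members, 5 such features exceeded 3 counts, the limit that a count of 0 allows, in those samples. They are flagged as signal outside the main measurement, and all counts are given in the order just named. Gm12606 is a long intergenic noncoding RNA at 89235699 to 89273403 on the minus strand, read in the same direction as Cdkn2a and starting 1067 bases beyond its 3′ end. It had 2095, 1400, 2 and 21 counts. Over the UMIs of the longer gene list that is 10.7, 7.33, 0.0111 and 0.113 CPM, low in both old samples although Cdkn2a was high there. Wincr1, beyond Mtap on the plus strand, had 22614, 6066, 4132 and 6839 counts. Gm12602, between Wincr1 and Mtap on the minus strand, had 5316, 4311, 2828 and 861 counts. On the other side of Cdkn2b, Gm12609 had 492, 282, 22 and 256 counts and Gm12610 had 874, 382, 69 and 543. Each of the 5 features was highest in young replicate 2, the sample in which genes within 10 Mb of the locus stood high. With 2 samples a group, no test was made.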

How the results depend on the processing

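Of the alternatives other than leaving out single samples, 100 values kept direction and side of the threshold and within the spread, 8 moved, 9 lost the threshold, 3 passed it and 4 turned. Cdkn2a against Mki67/Top2a turned to -0.067 without Myog-positive cells, -0.013 with Top2a alone, -0.012 on thinned levels and -0.061 in the added edgeR fit. With classes from all UMIs the log2 ratios were -0.42 for Cdkn2b by Mki67/Top2a and -0.51, -0.38 and -0.63 for Cdkn2a, Cdkn2b and Mtap by Myog, none passing after adjustment, and Cdkn2b by Mki67 alone was -0.28. At 2500 and 10000 UMIs the co-detection of Cdkn2a was 0.44 and 0.32 with Cdkn2b and 0.10 and 0.081 with Mtap, no longer passing. Cdkn2b with Mtap passed within proliferation classes (0.064), without the deepest cells (0.062) and without thinning (0.11), all adjusted p = 0.0402. The Cdkn2b share difference was -37.1 points unthinned, -30.8 at 10000 and -11.2 at 2500 UMIs. The Mtap level on the shorter list, with 1 sample a group, was -0.12. Where a call was lost with the exact permutation p still at 0.03125, the adjusted p rose with the number of other tests above that value. The cause of the other changes was not tested. The count of genes called was 219 with DESeq2, 2 without TMM, 0 without the gene list term and 0 on the longer list alone.

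Leaving out 1 sample at a time gave ranges of 0 to 3 genes called (3 without young replicate 3, 0 without young or old replicate 1), 2.14 to 4.85 for the Cdkn2a level, -2.13 to -1.82 for Cdkn2b and -1.49 to -0.88 for Mtap. Share differences ranged over 16.5 to 54.6, -23.3 to -16.1 and -33.3 to -11.0 points. By Mki67/Top2a the ranges were -0.054 to 0.044 for Cdkn2a, -0.48 to -0.37 for Cdkn2b and 0.16 to 0.27 for Mtap, and by Myog -0.97 to -0.73, -0.75 to -0.54 and -0.97 to -0.76. Co-detection ranged over 0.21 to 0.48 (Cdkn2a with Cdkn2b), 0.050 to 0.10 (Cdkn2a with Mtap) and 0.01 to 0.06 (Cdkn2b with Mtap). With 5 samples the exact test cannot go below 0.0625. The member levels within 1 gene list and the fits with the sample as a block were chosen after seeing the data. With the replicate number as a block 1 gene was called, as without it, the Cdkn2a level was 3.27 (4.17 without the block), and same-numbered samples did not deviate together in every pair (r = 0.43, 0.32 and -0.12 over 7960 genes). Depth limits the young Cdkn2a shares, and the number of cells (60) the Myog values of old replicate 1.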
